A study of Mus musculus with 6 samples.

Results

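Integrins are receptors of 1 alpha and 1 beta chain that tie cells to their surroundings, and laminins are matrix proteins built from an alpha, a beta and a gamma chain. The genes described here are those whose symbols name an integrin alpha chain, an integrin beta chain or a laminin chain. Membership goes by symbol, although the families were chosen with earlier results of these data known, and each gene was read by its brightest probe set, a group of short probes against the 3′ part of a transcript. The rule found 34 genes among 18193, comprising 16 alpha chains, 8 beta chains and 10 laminin chains. Some other symbols of the same families were not analysed here.

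The arrays compared cultured tail tip fibroblasts of newborn mice with an intact *Hotair* gene, 3 arrays, and of *Hotair* knockout mice, 3 arrays. Both genotypes came from stock backcrossed to C57BL6, and the labels describe neither the knockout allele nor whether each array had its own animal or culture. *Hotair* is a long noncoding RNA of the Hoxc cluster. It was not analysed here (0 probe sets named), and the labels of genotype thus have no check against it.

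Laminins assemble into the sheet of basement membrane together with type IV collagen, nidogens and perlecan, and fibroblasts of the skin both make some of their chains and hold them through integrins. The beta chain encoded by *Itgb1* pairs with many alpha chains, and the pair decides the ligand: some bind collagen, some laminin, and some the RGD motif of fibronectin or vitronectin. On the inner side of the membrane, adaptors such as talin, kindlins and alpha-actinin link integrins to actin.

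The 6 arrays had close median values, from 5.56 to 5.68 on the log2 scale, but did not group by genotype on the first principal component. The arrays numbered 1 of both genotypes stood apart, at −114.7 and −82.7 on it, against 39.3 to 74.7 for the other 4 arrays. On the second component those 4 arrays separated by genotype, at 75.3 and 66.0 in wild type, against −59.1 and −71.0 in knockout, with the arrays numbered 1 between them at −11.9 and 0.7. Knockout array 1 also had the largest 3′ minus 5′ differences of the control transcripts, a sign of RNA breakdown, at 0.63 for *Actb* and 0.75 for *Gapdh*, against at most 0.21 and −0.03 elsewhere. Of the fibroblast markers, the collagen chains *Col1a1*, *Col1a2* and *Col3a1* and the filament *Vim* lay between 11.86 and 14.80 on every array. The surface marker *Thy1* was uneven, at 12.15, 4.65 and 7.17 in wild type, against 11.71, 10.54 and 10.28 in knockout. Of 10 fibroblast markers 9 were above 0, where 9305 of all 18193 genes were, and none passed limma over 6 arrays. The median difference was 1.12, and 0.42 over all probe sets of these markers. *Vim* was lower without overlap, by −0.24. Without both arrays numbered 1 *Col3a1*, *Dcn*, *Fap*, *Lum* and *Thy1* passed as higher, where 7.56% of all genes did. A fit without both arrays numbered 1, a choice made after seeing the data, is therefore given beside many of the results.

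Among the integrin and laminin chains the largest difference between genotypes was that of *Itga7*, a laminin receptor chain best known from muscle. It measured 8.23, 7.86 and 7.46 in wild type, against 7.35, 5.67 and 5.64 in knockout, a difference of −1.63 ± 0.51 (SE, n = 3 per genotype), which is 3.09-fold on the linear scale. None of the 34 genes passed limma over all 6 arrays (adjusted p = 0.743 for *Itga7*), and 0% of all genes did. At an unadjusted p under 0.05 stood 1 member, *Itga7*, where 6.68% of all genes did (2.67% lower and 4.01% higher), and 2 with the replicate number as a block, *Itga7* and *Itga1*, against 11.1% of all genes (4.23% lower and 6.86% higher). Without wild-type array 1 this count was 8 (14.1% of all genes), and without knockout array 1 it was 3 (15.7%), with 0 members called at an adjusted p under 0.05 (0.478%). It was 0 without wild-type array 2 (3.21%), knockout array 2 (2.54%) or knockout array 3 (2.35%), and 1 without wild-type array 3 (3.59%). The genotypes did not overlap for 4 of 34 genes, where 9.93% of all genes did not. Of these, *Itga7*, *Lamb1* and *Lamb3* were lower in knockout (4.38% of all genes) and *Itgb2* was higher (5.56%). Within all 3 replicate numbers 7 members were lower, against 13.4% of all genes, and 2 were higher, against 17.1%. Of the 34 differences, 5 were larger than 0.5 in size, where 19.5% of all genes were. Smaller than their own SE were 21, a count not made for all genes. A mean under 6, where differences are compressed, was found for 15 members. The median difference was −0.13 for alpha chains, 0.00 for beta chains and −0.18 for laminin chains, against 0.01 for all genes. Without both arrays numbered 1 these medians were −0.15, −0.02 and −0.23, against 0.04 for all genes.

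**Figure D1:**
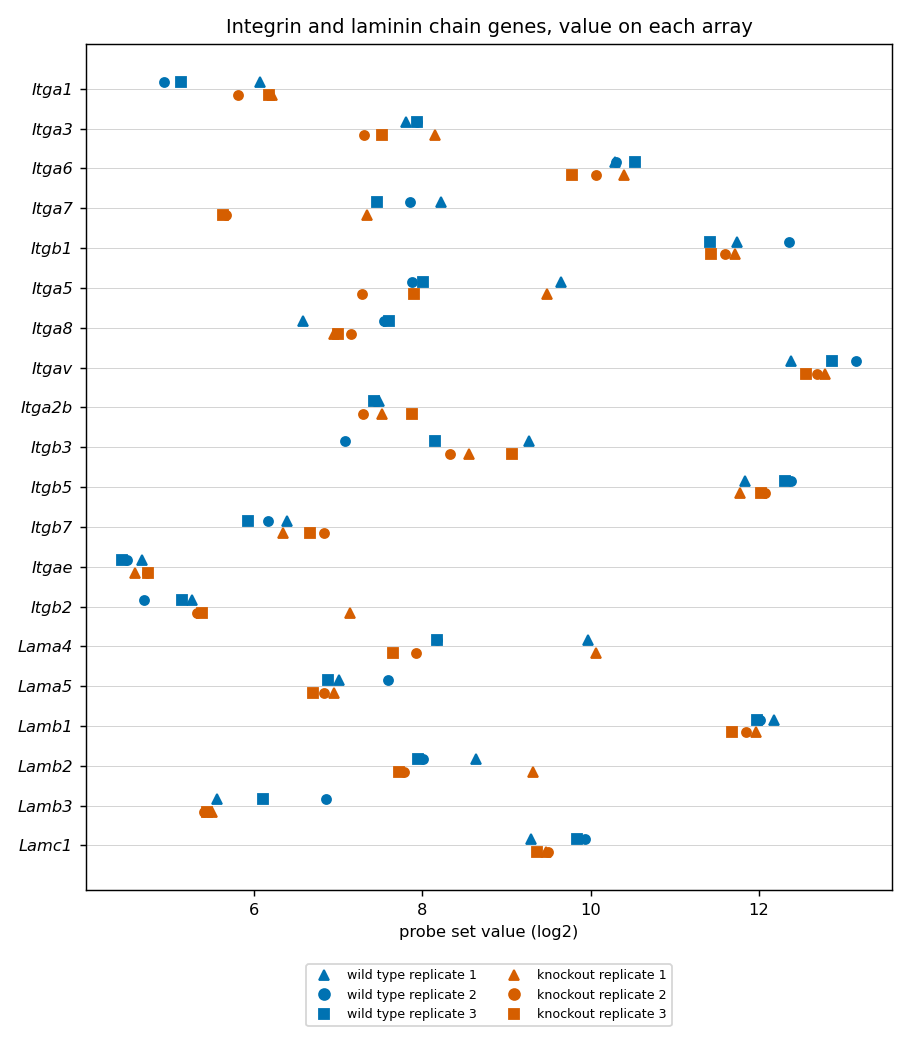
Log2 probe set values (x axis) of the 20 members chosen by the naming rule, 1 row per gene, with wild-type arrays in blue above and knockout arrays in orange below. Triangles are arrays numbered 1, circles 2 and squares 3. The knockout values of *Itga7* (7.35, 5.67 and 5.64) all lie below the wild-type values, and *Lama4* and *Itga5* are high on the arrays numbered 1 of both genotypes. Positions of different genes cannot be compared, as each probe set has its own brightness.

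Among laminin receptor chains the knockout values of *Itga7* were the lowest relative to wild type, and those of *Itga3* and *Itga6* were slightly lower on the arrays numbered 2 and 3. All 3 knockout arrays lay below all wild-type arrays for *Itga7*, and it was lower within each replicate number, by −0.87, −2.20 and −1.82. With arrays 1 of both genotypes left out, it fell by 2.01 ± 0.19 (SE, 2 arrays per genotype) and passed limma (adjusted p = 0.00745). It has 1 probe set. *Itga7* is also made by muscle cells. The skeletal muscle markers *Myod1*, *Myog*, *Myf5*, *Pax7* and *Ckm*, 5 of 5 measured, had medians of 4.14 to 4.23 on the wild-type arrays and 3.92 to 4.19 on the knockout arrays, and *Myod1*, the master factor of that lineage, lay between 3.90 and 4.06. Of 5 smooth muscle markers, 4 were lower in knockout. The actin-binding *Tagln* measured 14.71, 14.17 and 13.61 in wild type, against 14.26, 13.27 and 13.01 in knockout, and *Cnn1* was higher, by 1.55. In the fit of arrays 2 and 3 alone, 3 of the 5 were above 0. *Cnn1* passed as higher there, at 3.05 ± 0.21 (SE, limma adjusted p = 0.00533), where 7.56% of all genes did. The summed linear level of these 5 genes was 36870 to 64290 in wild type and 31720 to 47430 in knockout. The part of smooth muscle genes in the lower *Itga7* was not tested, and fewer cells of a type cannot be told apart from less RNA per cell.

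*Itga6*, a chain of the main laminin receptors of epithelia and many other cells, measured 10.29, 10.30 and 10.53 in wild type, against 10.40, 10.06 and 9.78 in knockout. Its 2 probe sets were both lower, at −0.29 and −0.19. *Itga3*, a receptor chain for laminins of the skin, measured 7.81, 7.94 and 7.94 in wild type, against 8.15, 7.31 and 7.52 in knockout. For both genes the genotypes overlapped through knockout array 1, the only knockout array above its wild-type partner. The other 2 probe sets of *Itga3* both differed by 0.01. Without the arrays numbered 1 the brightest probe sets of *Itga6* and *Itga3* differed by −0.50 ± 0.18 and −0.52 ± 0.15 (SE). Neither gene passed (limma adjusted p = 0.146 and 0.0922). *Itgb4*, the hemidesmosome chain that pairs with the product of *Itga6* in keratinocytes, lay between 5.23 and 6.09 on all arrays and differed by 0.04 ± 0.29.

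The collagen receptor chain *Itga1* was the alpha chain with the largest positive difference. It measured 6.08, 4.94 and 5.14 in wild type, against 6.22, 5.82 and 6.18 in knockout, a difference of 0.69 ± 0.33 (SE). The genotypes overlapped, because wild-type array 1 lay among the knockout arrays. Without both arrays numbered 1 *Itga1* rose by 0.96 ± 0.19 and passed (limma adjusted p = 0.0324). Its brightest probe set had a mean of 5.73, which is under 6, where differences are compressed. The second probe set, which is dimmer still, differed by 0.03. The other collagen receptor chains among the genes analysed here were *Itga2* and *Itga10*. They differed by −0.14 ± 0.17 and −0.18 ± 0.18 and overlapped between genotypes.

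*Itgb1*, the beta chain shared by the collagen and laminin receptors and the classical fibronectin receptor, overlapped fully between genotypes. It measured 11.74, 12.36 and 11.42 in wild type, against 11.71, 11.60 and 11.43 in knockout, a difference of −0.26 ± 0.27 (SE). Of its 6 probe sets 5 were lower, with differences from −0.36 to 0.00. With arrays 1 of both genotypes left out, the difference was −0.37 ± 0.33.

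The receptors for RGD ligands had 6 of 8 chains below 0, where 48.9% of all genes were, and none that passed. Among the 6 are the dim *Itgb6*, at −0.04, and *Itgav* and *Itga5*. The sign of *Itgb6*, *Itgav* and *Itga5* changed when single arrays were left out. *Itgav*, the alpha chain of the vitronectin receptors that also release TGF-beta from its latent form, measured 12.38, 13.15 and 12.87 in wild type, against 12.78, 12.69 and 12.56 in knockout. Of the 5 probe sets of *Itgav* only 3 were lower, with differences from −0.26 to 0.19. Its partner *Itgb5* measured 11.84, 12.38 and 12.31 in wild type, against 11.78, 12.07 and 12.03 in knockout, and all 4 of its probe sets were lower, by −0.33 to −0.15. Their differences, −0.12 ± 0.22 and −0.22 ± 0.20 (SE), were close to or below the errors. In the fit of arrays 2 and 3 alone, they were −0.38 ± 0.17 and −0.30 ± 0.14 and did not pass (limma adjusted p = 0.229 and 0.266). *Itgb3*, another partner of *Itgav*, was among the least even genes. It measured 9.27, 7.08 and 8.15 in wild type, against 8.56, 8.33 and 9.07 in knockout. Its difference of 0.49 ± 0.56 turned on wild-type array 2, the lowest value, without which it was −0.06, while it was 1.08 ± 0.43 without both arrays numbered 1 (limma adjusted p = 0.176). The second probe set of *Itgb3*, at 5.82 to 6.80, differed by only 0.01 over 6 arrays.

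*Itgb8*, the chain of a TGF-beta activating integrin, is given here although the naming rule did not pick it, because its difference was over 0.5. It measured 4.26, 6.78 and 6.13 in wild type, against 4.71, 5.37 and 5.47 in knockout. The 2 lowest values belong to the arrays numbered 1, and on the arrays numbered 2 and 3 knockout lay below wild type. The difference of −0.54 ± 0.66 (SE) became −1.03 ± 0.25 without the arrays numbered 1 and did not pass (limma adjusted p = 0.0535). *Itga8*, the receptor chain for nephronectin, had the same order, at 6.59, 7.55 and 7.61 in wild type against 6.95, 7.16 and 7.0 in knockout, and differed by −0.50 ± 0.15 without the arrays numbered 1 (limma adjusted p = 0.0975).

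The fibronectin receptor chain *Itga5* followed the replicate number far more than the genotype. It measured 9.65, 7.88 and 8.01 in wild type, against 9.48, 7.29 and 7.91 in knockout, and the difference of −0.29 ± 0.72 (SE) was small beside the gap between array 1 and the others. It was lower in knockout within each number, by −0.18, −0.60 and −0.10, and the difference without both arrays numbered 1 was −0.35 ± 0.24. Its probe set carries the suffix of sets that can also detect related transcripts. *Itga2b*, the platelet alpha chain, lay between 7.30 and 7.88 on all arrays and differed by 0.12 ± 0.18. The platelet genes *Pf4* and *Gp9* lay between 3.94 and 6.02, while the platelet chemokine *Ppbp* measured 13.55, 12.12 and 12.52 in wild type, against 13.64, 6.67 and 6.85 in knockout. *Gp1bb*, a platelet receptor chain, was higher in knockout within each number, at 6.64, 4.95 and 5.0 in wild type, against 7.04, 5.91 and 5.59. Without both arrays numbered 1 *Ppbp* passed as lower (6.41% of all genes) and *Gp1bb* as higher (7.56%), by 0.78 (limma adjusted p = 0.0452). The other probe set of *Gp1bb* differed by only 0.09 over 6 arrays. With array weights *Gp1bb* did not pass (limma adjusted p = 0.188). The part of these genes in the level of *Itga2b* was not tested. *Itgb6*, an epithelial chain, lay between 3.65 and 3.87.

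The chains of the leukocyte integrins differed little, apart from *Itgb2* on knockout array 1. *Itgb2*, the beta chain shared by the leukocyte integrins, measured 5.27, 4.70 and 5.15 in wild type, against 7.14, 5.33 and 5.39 in knockout, a difference of 0.91 ± 0.52 (SE). All 3 knockout values lay above all wild-type values, but arrays 2 and 3 only narrowly. Without knockout array 1 the difference was 0.32 ± 0.22 (limma adjusted p = 0.642). Its leukocyte partners *Itgal*, *Itgam* and *Itgax* lay between 3.76 and 4.95 on every array, with differences from −0.05 to 0.09. Among 8 leukocyte and macrophage markers, *Lyz2*, *Cd68* and the dim *Adgre1* were also highest on knockout array 1, at 10.57, 7.85 and 4.86. *Csf1r*, *Aif1*, *Cd3e*, *Cd14* and *Ptprc* were not, and *Csf1r* measured 7.5 on wild-type array 1 and 7.3 on knockout array 1. The summed linear level of all 8 was 718.1 to 909.9 in wild type, against 2256, 511.8 and 392.9 in knockout. *Lyz2* was the brightest of them on knockout array 1. *Cd14*, a receptor of macrophages, differed by −1.97 and passed as lower without both arrays numbered 1, where 6.41% of all genes did. The pan-leukocyte marker *Ptprc* lay between 3.84 and 4.44 on all arrays. The part of these cells in the level of *Itgb2* was not tested.

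*Itgb7*, the beta chain of a lymphocyte homing receptor, measured 6.40, 6.17 and 5.93 in wild type, against 6.35, 6.83 and 6.67 in knockout. Its difference was 0.45 ± 0.20 (SE) over 6 arrays and 0.70 ± 0.17 without the arrays numbered 1 (limma adjusted p = 0.0530), and 1 probe set reads it. *Itgae*, its partner on lymphocytes of epithelia, measured 4.68, 4.50 and 4.44 in wild type, against 4.59, 4.73 and 4.75 in knockout and overlapped between genotypes. *Itga4*, the other partner and a receptor for the adhesion protein encoded by *Vcam1*, measured 6.25, 7.2 and 6.94 in wild type, against 6.34, 6.60 and 6.32 in knockout. On the arrays numbered 2 and 3 *Itga4* was lower in knockout by −0.59 and −0.61, the opposite direction to *Itgb7*. Of the 5 probe sets of *Itga4* only 3 were lower over 6 arrays, with differences from −0.37 to 0.11. *Itga9* differed by 0.07 ± 0.35.

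**Figure D2:**
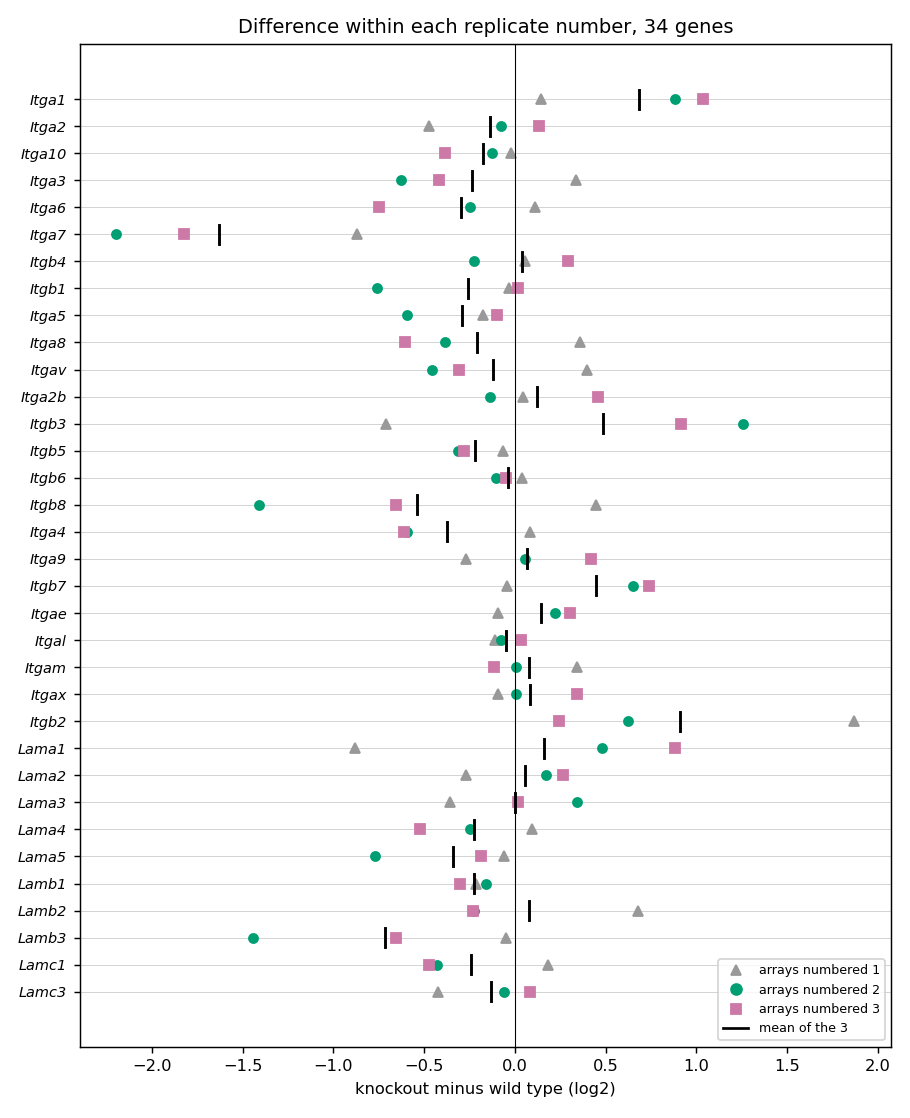
Knockout minus wild type (log2, x axis) within each replicate number for all 34 genes, with grey triangles for the arrays numbered 1, green circles for 2, pink squares for 3 and a black bar for the mean of the 3. For 18 genes the arrays numbered 1 differ in the opposite direction to both other numbers, while *Itga7* lies at −0.87, −2.20 and −1.82.

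The laminin chains of the common fibroblast and vessel laminins were slightly lower or level in knockout, and none passed. *Lamb1* and *Lamc1* encode the beta and gamma chains found in most laminins. *Lamb1* measured 12.18, 12.01 and 11.98 in wild type, against 11.97, 11.85 and 11.68 in knockout. The genotypes did not overlap, by a margin of only the second decimal, and all 4 of its probe sets were lower, by −0.73 to −0.16. The difference of the main set was −0.23 ± 0.15 (SE), and −0.23 ± 0.15 also without the arrays numbered 1. *Lamc1* measured 9.29, 9.93 and 9.84 in wild type, against 9.47, 9.50 and 9.37 in knockout, with both probe sets lower, at −0.27 and −0.24, and it differed by −0.45 ± 0.15 without the arrays numbered 1 (limma adjusted p = 0.120). *Lamb2*, the beta chain of muscle and kidney laminins, was higher or lower depending on knockout array 1 (8.64, 8.01 and 7.95 in wild type, 9.32, 7.79 and 7.73 in knockout). It differed by 0.08 ± 0.48 over 6 arrays and by −0.22 ± 0.14 without the arrays numbered 1.

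*Lamb3*, a chain of the epidermal anchoring laminin, had the largest difference of the laminins. It measured 5.56, 6.86 and 6.11 in wild type, against 5.51, 5.41 and 5.45 in knockout, so that the knockout arrays were level and the wild-type arrays spread upward. The genotypes did not overlap, but wild-type array 1 lay only 0.05 above its partner. The difference was −0.72 ± 0.33 (SE) over 6 arrays and −1.05 ± 0.27 without the arrays numbered 1, and passed in neither fit (limma adjusted p = 0.766 and 0.0651). *Lama3*, the alpha chain of the same laminin, lay between 4.67 and 5.11 and differed by 0.00 ± 0.19. Of 7 keratinocyte markers, 4 were above 0 and 3 below, with a summed linear level of 465.2 to 543.4 in wild type and 432.3 to 560.3 in knockout. *Krt14* lay between 4.66 and 4.80 and *Cdh1* between 3.09 and 3.70. Brighter were *Krt10*, between 7.57 and 8.09, *Krt5*, between 6.14 and 6.68, and *Epcam*, between 6.06 and 6.78.

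The laminin alpha chains differed by −0.34 to 0.16. *Lama5*, of the widespread basement membrane laminins, measured 7.01, 7.6 and 6.88 in wild type, against 6.95, 6.83 and 6.70 in knockout, and its 3 probe sets were all lower. Its difference of −0.34 ± 0.23 (SE) rested most on wild-type array 2 and was −0.12 without it, while it was −0.48 ± 0.27 without the arrays numbered 1. *Lama4*, of vessels and mesenchyme, measured 9.97, 8.18 and 8.18 in wild type, against 10.06, 7.93 and 7.66 in knockout. *Lama2*, of muscle and nerve, measured 7.61, 5.88 and 5.76 in wild type, against 7.34, 6.05 and 6.02 in knockout. Both were high on the arrays numbered 1 of both genotypes and differed between genotypes by −0.23 ± 0.81 and 0.06 ± 0.62. *Lama1*, of the embryo, differed by 0.16 ± 0.33, and *Lamc3* by −0.13 ± 0.18.

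For several members the replicate number set a wider gap than the genotype. In wild type, array 1 lay above the mean of arrays 2 and 3 by 1.79 for *Lama4*, 1.79 for *Lama2* and 1.71 for *Itga5*. In knockout the same gaps were 2.27, 1.30 and 1.88. These 3 of 34 genes (8.82%) were over 1 higher on array 1 in both genotypes, and 3.81% of all genes were. *Itgb8* was lower there, by −2.19 and −0.71. This is a description of 1 array per genotype with no test, and the 34 genes were not shown to differ from others in it.

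**Figure D3:**
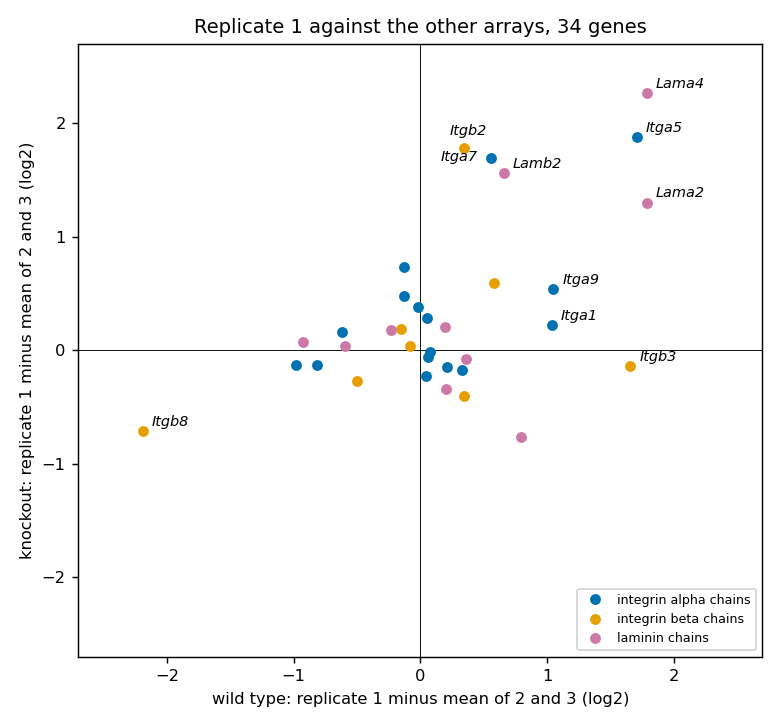
Array 1 minus the mean of arrays 2 and 3 (log2) in wild type (x axis) and in knockout (y axis), 1 point per gene and 1 colour per chain class, with names where either gap is over 1. *Lama4*, *Itga5* and *Lama2* are high on array 1 of both genotypes, whereas *Itga7*, *Itgb2* and *Lamb2* stand higher mainly on knockout array 1.

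With arrays 1 of both genotypes left out, 2 of the 34 genes passed limma, *Itga7* lower (6.41% of all genes) and *Itga1* higher (7.56%), where 14% of all genes passed in either direction. At an unadjusted p under 0.05 there were 12 members, 8 lower (13% of all genes) and 4 higher (15%), where 28.1% of all genes were in either direction. Array weights, which lower the influence of uneven arrays, gave 4 calls among the members, *Itga7* and *Lamb3* lower (4.85% of all genes) and *Itga1* and *Itgb7* higher (6.7%), where 11.5% of all genes were called. At an unadjusted p under 0.05 the weights gave 15 members, against 28.3% of all genes, of which 11 were lower (12.4% of all genes) and 4 higher (15.9%). No test set these counts against those of all genes, and nothing particular to the chains is read from them.

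**Figure D4:**
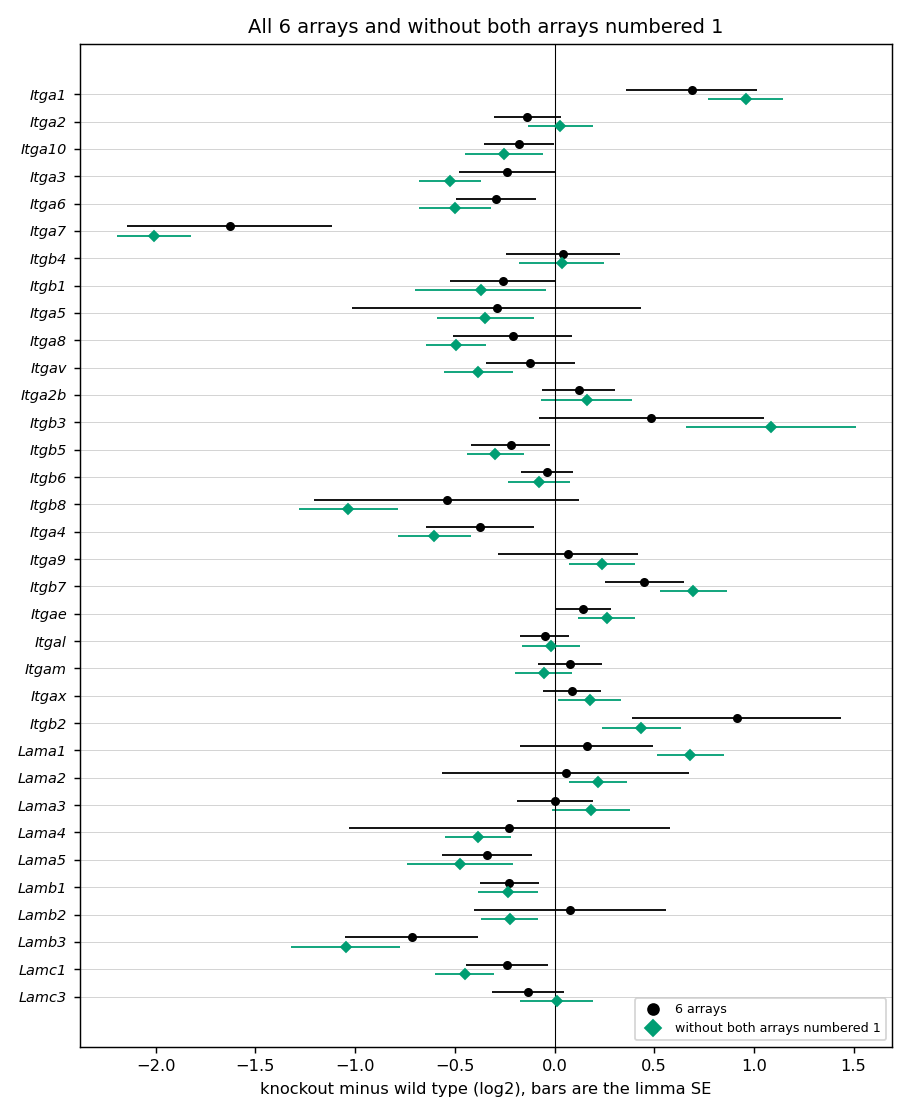
Knockout minus wild type (log2, x axis) for all 34 genes over 6 arrays (black circles) and without both arrays numbered 1 (green diamonds), with bars of 1 SE from limma. *Itga7* moves from −1.63 to −2.01 and *Itga1* from 0.69 to 0.96, while *Lamb2* changes sign.

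Some genes that work with integrins at the membrane and in the matrix had larger differences than most chains, although none of them passed limma over 6 arrays (smallest adjusted p = 0.743). These lists were written with earlier results of the same data known. Of 27 focal adhesion and integrin adaptors 24 were below 0, with a median of −0.52, where 48.9% of all genes were below 0. The median was −0.68 without both arrays numbered 1, −0.32 without wild-type array 1 and −0.35 without knockout array 2. *Actn1*, the actin crosslinker alpha-actinin, measured 14.00, 13.89 and 13.83 in wild type, against 13.86, 12.42 and 12.45 in knockout. *Itgb1bp1*, which binds the tail of the shared beta chain, measured 10.81, 10.86 and 10.26 in wild type, against 10.29, 9.60 and 9.80 in knockout. For both, the knockout arrays numbered 2 and 3 lay below every wild-type array. The kindlin *Fermt2*, an integrin activator, differed by −0.44 ± 0.18 (SE), with no overlap, but 1 of its 3 probe sets differed by 0.00. On the other side, *Tns1*, *Sharpin* and *Fermt3* differed by only 0.29, 0.21 and 0.07. The adaptors at an unadjusted p under 0.05 numbered 2 over 6 arrays (2.67% of all genes were lower at that p) and 12 with the replicate block (4.23%), all lower. In the fit of arrays 2 and 3 alone, 9 adaptors passed and all of them were lower, where 6.41% of all genes passed as lower, *Actn1* among them at −1.42 ± 0.14 (limma adjusted p = 0.00862).

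Among 15 basement membrane partners of laminin 11 were below 0, with a median of −0.40, which was −0.64 without both arrays numbered 1 and −0.24 without knockout array 2. The chains of the common type IV collagen were the lowest. *Col4a1* measured 13.44, 13.37 and 13.21 in wild type, against 12.70, 11.5 and 10.92 in knockout, and *Col4a2*, which is transcribed from the same promoter region, 12.75, 12.77 and 11.75 against 11.94, 10.60 and 9.93. *Col4a1* did not overlap between genotypes, and the differences were −1.64 ± 0.45 and −1.60 ± 0.57 (SE). *Nid1*, which bridges laminin and collagen, was higher, at 12.96, 9.0 and 10.16 in wild type, against 12.34, 12.51 and 12.38 in knockout, so that only wild-type arrays 2 and 3 were low. *Col4a4*, a kidney chain, differed by −0.50 ± 0.21, *Bcam*, a receptor for *Lama5* laminins, by 0.03 ± 0.25 and *Col4a6* by 0.01 ± 0.17. Without both arrays numbered 1, 5 partners passed, where 14% of all genes did: *Col4a1*, *Col4a2*, *Col18a1* and *Sgce* lower and *Nid1* higher, of which *Col18a1* (−1.35) and *Sgce* (−0.94) were named after their values were seen. With the replicate block 5 were at an unadjusted p under 0.05 (11.1% of all genes), and 2 without it (6.68%).

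The list of integrin ligands also holds latent TGF-beta partners, such as *Tgfb3*, and its genes differed both ways. Of its 19 genes 9 were above 0 and 10 below. The median was −0.08, which was 0.23 without wild-type array 1. *Vcam1*, the counter-receptor of the *Itga4* integrin, measured 9.19, 9.33 and 9.44 in wild type, against 9.71, 11.77 and 11.99 in knockout, and *Emilin1*, an elastic fibre protein, 9.02, 9.56 and 8.97 against 9.93, 10.47 and 11.01. Neither gene overlapped between genotypes, and their differences were 1.83 ± 0.61 and 1.29 ± 0.32 (SE). *Thbs1*, an activator of latent TGF-beta, measured 13.87, 14.30 and 13.66 in wild type, against 13.14, 12.12 and 11.49 in knockout. *Tgfb3*, a TGF-beta that is secreted in latent form, measured 12.30, 11.97 and 11.33 in wild type, against 11.64, 9.68 and 9.89 in knockout. These 2 were lower within each replicate number, and the knockout arrays of *Thbs1* all lay below wild type. *Postn*, which binds *Itgav* integrins, ranged from 7.23 to 13.86 and overlapped, as did *Edil3* (4.54 to 9.51). With arrays 1 of both genotypes left out, 8 genes of this list passed, latent TGF-beta partners included. They went 4 in each direction, where 14% of all genes passed. At an unadjusted p under 0.05 over 6 arrays there were 4, against 6.68% of all genes, with *Emilin1* and *Vcam1* higher and *Thbs1* and *Tgfb3* lower. In the same comparison 9 of 10 fibroblast markers were above 0 and none passed over 6 arrays, as given above. The part of the fibroblast markers in these lists was not tested.

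**Figure D5:**
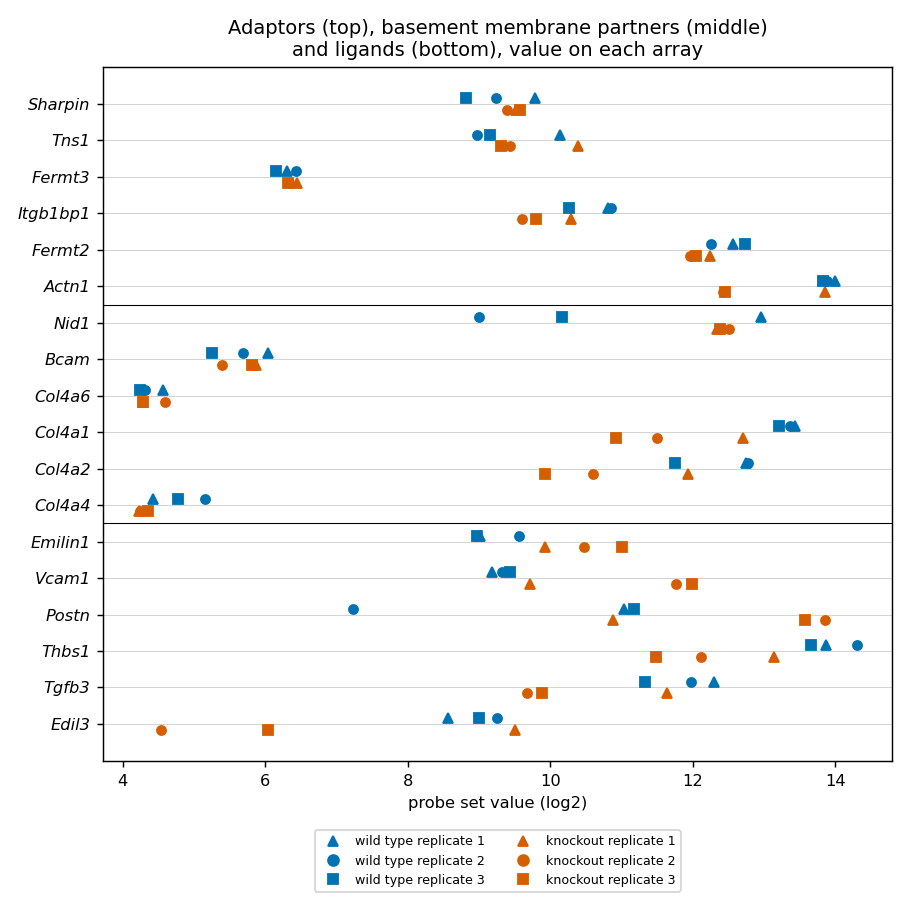
Log2 probe set values (x axis) of the 18 named partner genes. Adaptors are at the top, basement membrane partners in the middle, and integrin ligands with latent TGF-beta partners at the bottom. Wild-type arrays are blue and knockout arrays orange, and triangles, circles and squares are arrays numbered 1, 2 and 3. The knockout arrays numbered 2 and 3 of *Actn1*, *Col4a1* and *Thbs1* lie below all wild-type arrays, and those of *Vcam1* above.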

How the data were processed

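RNA of 6 fibroblast samples was read on mouse 3′ arrays, labelled by 3′ IVT chemistry per the labels' protocols. The deposited log2 values summarise probe sets, and the submitters' processing notes name RMA and R 2.11.1. RMA equalises the arrays, so a change in total RNA cannot be seen, and differences of dim sets are compressed. A platform annotation table named 34945 of 45037 probe sets for 1 gene, and all 34 members were found in a RefSeq gene list by Entrez identifier, with 0 symbols changed. The brightest probe set of each gene, by its mean of 6 arrays, was kept. Of the members, 19 had a mean of at least 6.

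Genotypes were compared on all 18193 genes with lmFit and eBayes of limma 3.58.1 (R 4.3.3), with a term for genotype and Benjamini-Hochberg adjustment at 0.05, tested on simulated data. The members and lists were chosen with earlier results of these data known. Values per array are given for members with a mean of at least 7 and for the 4 of smallest p in each direction, and in each partner list the 3 of smallest p in each direction are named. *Itga4*, *Itga9*, *Itgb8*, *Lama1*, *Lama2* and the other dim chains were added after their values were seen. The p-values reflect only the scatter among these arrays, which may be technical, and 3 arrays per genotype limit the precision.

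The labels number the arrays 1 to 3 in each genotype. After subtraction of each genotype's mean, arrays of the same number correlated across genes at 0.51, 0.39 and 0.35, so the numbers were taken to pair the arrays by a fixed rule. Wild-type array 3 correlated more with knockout array 2 (0.43), and wild-type array 2 correlated with knockout array 3 at 0.28. With array 1 apart in both genotypes, arrays 2 and 3 correlate under either pairing. Their pairing is thus uncertain, as are the block and the differences within numbers 2 and 3. Alternatives were the block, each array left out, other probe set choices, a dim filter, renormalisation, eBayes options and array weights. Leaving out both arrays numbered 1 was added after seeing the data.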

Additional observations from a re-analysis of the deposited data

How the results depend on the processing

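Over 6 arrays limma called 0 members. Array weights called 4 (11.5% of all genes) and leaving out both arrays numbered 1 called 2 (14%). The members at an unadjusted p under 0.05 numbered 1, against 2 with the replicate block, 2 with the mean of all probe sets of a gene, 15 with array weights, 12 without both arrays numbered 1, and 0 to 8 when 1 array was left out. The replicate block changed no call at an adjusted p under 0.05. Array weights called 7 adaptors, 4 basement membrane partners and 9 genes of the list of integrin ligands and latent TGF-beta partners. Leaving out both arrays numbered 1 called 9, 5 and 8. Each count stands against 0 over 6 arrays and the same shares of all genes. Leaving out 1 array called 0 to 1 in each list and moved the median of the list with the ligands to between −0.14 and 0.23. With 1 array left out, the difference ranged from −0.034 to 0.26 for *Itga2b*, −0.92 to 0.28 for *Itga5*, −0.33 to 0.053 for *Itgav*, −0.47 to 0.0041 for *Itgb1*, −0.059 to 1.04 for *Itgb3*, −0.98 to 0.37 for *Lama4* and −0.44 to 0.35 for *Lamb2*, so their directions rest on single arrays. Signs also changed with 1 array left out for *Itga9*, *Itgam*, *Itgax*, *Itgb4*, *Itgb6*, *Lama1*, *Lama2* and *Lama3*, which the naming rule did not pick. *Lamb2* was at −0.17 with array weights and −0.22 without both arrays numbered 1. *Itga7* kept its direction under each alternative, between −2.20 and −1.34 with 1 array left out. With 1 array left out the median ranged from −0.09 to 0.14 for the beta chains and −0.34 to 0.027 for the laminins, which both changed sign, from −0.14 to −0.026 for the alpha chains, from −0.71 to −0.32 for the adaptors and from −0.52 to −0.24 for the basement membrane partners. The cause of these changes was not tested.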
